A study of Rattus norvegicus with 9 samples.

Results

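The miR-181 family was followed through small RNA libraries of rat hippocampus. Members were taken by name: every row of the deposited table whose identifier is rno-miR-181 followed by a, b, c or d, whatever arm or precursor ending comes after it. This gave 10 of the 633 mature miRNAs listed, and 8 of the 10 passed the filter on low counts. The 9 libraries came from Sprague-Dawley rats in 3 groups of 3. VEH rats received saline for 14 days and then for 7 more days. MK-801 rats were injected intraperitoneally each day for 14 days with 0.2 mg/kg MK-801 (dizocilpine), then with saline for 7 days. MK-801 plugs the channel of NMDA receptors for glutamate and serves to model schizophrenia. MK-801+CLO rats had 14 days of the same MK-801 injections and then 7 days of the atypical antipsychotic clozapine (CLO) at 10 mg/kg. No group received clozapine without MK-801. The labels give the age as postnatal day 21 in one place and as 5 weeks at the start of treatment in another. They name 10 rats per group, and the number of rats behind each library was not stated, so the p-values reflect how these libraries varied and that spread may be technical.

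MicroRNAs are short RNAs that guide Argonaute proteins to complementary sites in messenger RNAs and lower their output. Each hairpin precursor can yield a mature RNA from its 5′ side (5p) and one from its 3′ side (3p), and usually one of them is kept while the other is largely degraded. The seed, bases 2 to 8 counted from the 5′ end, does most of the target recognition, so miRNAs with a common seed share many potential targets. The miR-181 family is abundant in brain and in developing lymphocytes. In hippocampal neurons miR-181a is known to repress the AMPA receptor subunit GluA2 and to respond to dopamine signalling, and raised miR-181b has been described in the cortex of people with schizophrenia.

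The sequences are shown first, because they tell which members can act on the same sites and which are hard to tell apart. They are given as deposited, 5′ to 3′ with T for U, and capitals mark the seed. The 4 members of the 5p arm have the same seed and differ only further along.
miR-181a-5p: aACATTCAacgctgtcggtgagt
miR-181b-5p: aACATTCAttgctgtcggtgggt
miR-181c-5p: aACATTCAacctgtcggtgagt
miR-181d-5p: aACATTCAttgttgtcggtgggt
The tested 3p members carry other seeds, and miR-181a-1-3p and miR-181c-3p share theirs.
miR-181a-1-3p: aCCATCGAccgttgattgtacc
miR-181c-3p: aCCATCGAccgttgagtggacc
miR-181a-2-3p: aCCACCAAccgttgactgt
miR-181b-1-3p: cTCACTGAacaatgaatgcaa
Positions below count from 1 at the 5′ end. The substitutions from miR-181a-5p to miR-181b-5p are A9T, C10T and A21G, and miR-181d-5p departs from miR-181b-5p by C12T alone. Removing base 11 of miR-181a-5p gives miR-181c-5p. From miR-181a-1-3p to miR-181c-3p the substitutions are T16G and T19G. The labels do not say how reads matching several miRNAs were assigned, so the division of counts between near-identical members is uncertain. No other miRNA of the table has the seed of the 5p members.

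Of the 10 deposited sequences, 9 were found by name among the RefSeq mature miRNAs of assembly GRCr8, each with the same letters. In that annotation Mir181a-1 neighbours Mir181b1, and both overlap the long noncoding RNA LOC108352541. Mir181a2 neighbours Mir181b2. Both overlap Nr6a1, the gene of an orphan nuclear receptor, and the long noncoding RNA LOC120101539. Strand was not compared for these overlaps. Mir181c neighbours Mir181d, with Nanos3 as the next gene. The mature miR-181a-5p can come from Mir181a-1 or Mir181a2, and its single row cannot be divided between them, whereas the 3p members are specific to a precursor. The RefSeq hairpins of the Mir181c and Mir181d pair are shown because the arms and neighbours of this pair are compared with each other below. Capitals mark the 5p arm and then the 3p arm.
Mir181c: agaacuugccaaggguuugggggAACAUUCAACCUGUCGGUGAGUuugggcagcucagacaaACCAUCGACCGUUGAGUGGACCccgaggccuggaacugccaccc
Mir181d: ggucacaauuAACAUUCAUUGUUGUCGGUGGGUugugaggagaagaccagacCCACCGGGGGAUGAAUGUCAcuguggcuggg

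Library totals ran from 10665718 to 18284905 miRNA counts. Levels are given in CPM, the counts of a miRNA scaled by the library's total miRNA count. Mature miRNAs are of nearly equal length, so CPM was not divided by length. How evenly different miRNAs were captured in the libraries was not measured. Ranks and shares between miRNAs therefore describe counts, which may differ from their amounts in the tissue. As a check of the tissue, 6 of 6 neuronal marker miRNAs were present and summed to 120559 to 148448 CPM per library. The 4 liver and muscle markers in the table summed to 18.5 to 33.2 CPM, with miR-122-5p, the liver miRNA, at 0.664 CPM or less. Most of this sum was the muscle miR-133a-3p, at 17.2 to 31.1 CPM. Its log2 difference was 0.45 ± 0.18 in MK-801+CLO against MK-801 and 0.48 ± 0.18 in MK-801+CLO against VEH. The edgeR adjusted p was 0.526 and 0.254. VEH replicate 3 stood apart in the 7 markers of choroid plexus and ependyma, which summed to 12394 CPM there and to 2562 to 5800 CPM in the other libraries. By group, 7 of these 7 markers were lower in MK-801 than in VEH, with a median log2 difference of −0.40. Of them, 3 had an unadjusted edgeR p under 0.05, which 5.12% of all tested miRNAs had. In MK-801+CLO 6 of 7 were lower than in VEH, with a median of −1.16. Of those, 5 had such a p, against 14.9% of all. In both comparisons 0 of the 7 passed an edgeR adjusted p of 0.05. The MK-801 sums, 3647 to 4495 CPM, overlapped those of VEH. Every MK-801+CLO sum, 2562 to 3855 CPM, lay below every VEH sum, 3984 to 12394 CPM, and the part of this tissue in the miR-181 differences from VEH was not tested. In bulk tissue, fewer cells of a type and less RNA per cell cannot be told apart.

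The counts of the family were dominated by a single member. The guide strand rno-miR-181a-5p averaged 127330 CPM over the 9 libraries, rank 2 of all 633 miRNAs, and supplied 91.3% of the family's 5p counts. Next came rno-miR-181b-5p at 6484 CPM (rank 24, 4.66% of the 5p counts) and miR-181c-5p at 4920 CPM (rank 29, 3.58%). The level of miR-181d-5p was 691 CPM (rank 85, 0.505%). The order of these 4 exceeded the spread over all 9 libraries, narrowly so for the middle pair, of which the lowest miR-181b-5p value, 5483 CPM, lay above the highest miR-181c-5p value, 5370 CPM.

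The 3p members differed widely in level. The level of miR-181a-1-3p averaged 1154 CPM (rank 66), above miR-181d-5p, and that of rno-miR-181c-3p 373 CPM (rank 109). Against them, miR-181a-2-3p stood at 8.21 CPM (4.93 to 12.6 CPM) and miR-181b-1-3p at 5.78 CPM (4.71 to 6.94 CPM), and these ranges overlap. The last pair of members, miR-181b-2-3p with 11 counts in all and miR-181d-3p with 10, had 0 to 3 counts per library, were at 0 in 3 libraries each and were not tested. At these depths a level of up to 0.164 to 0.281 CPM, depending on the library, is still possible where the count is 0 (3 counts of the library total). Counting error was small for the abundant members: the widest 95% Wilson half-interval was 0.162% of the value for miR-181a-5p and 3.03% for miR-181c-3p, against 25.9% for miR-181a-2-3p.

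Together, the 4 rows with the common 5p seed took 12.6% ± 0.888 of all miRNA counts in VEH, 14.2% ± 1.87 in MK-801 and 15.1% ± 1.53 in MK-801+CLO (SD, n = 3 each). Single libraries ran from 12.0% in VEH replicate 3 to 16.3% in MK-801+CLO replicate 2. The ranges of all 3 groups overlap, and no test was made on this sum. The plot of levels by library shows the 6 most abundant members.

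**Figure D1:**
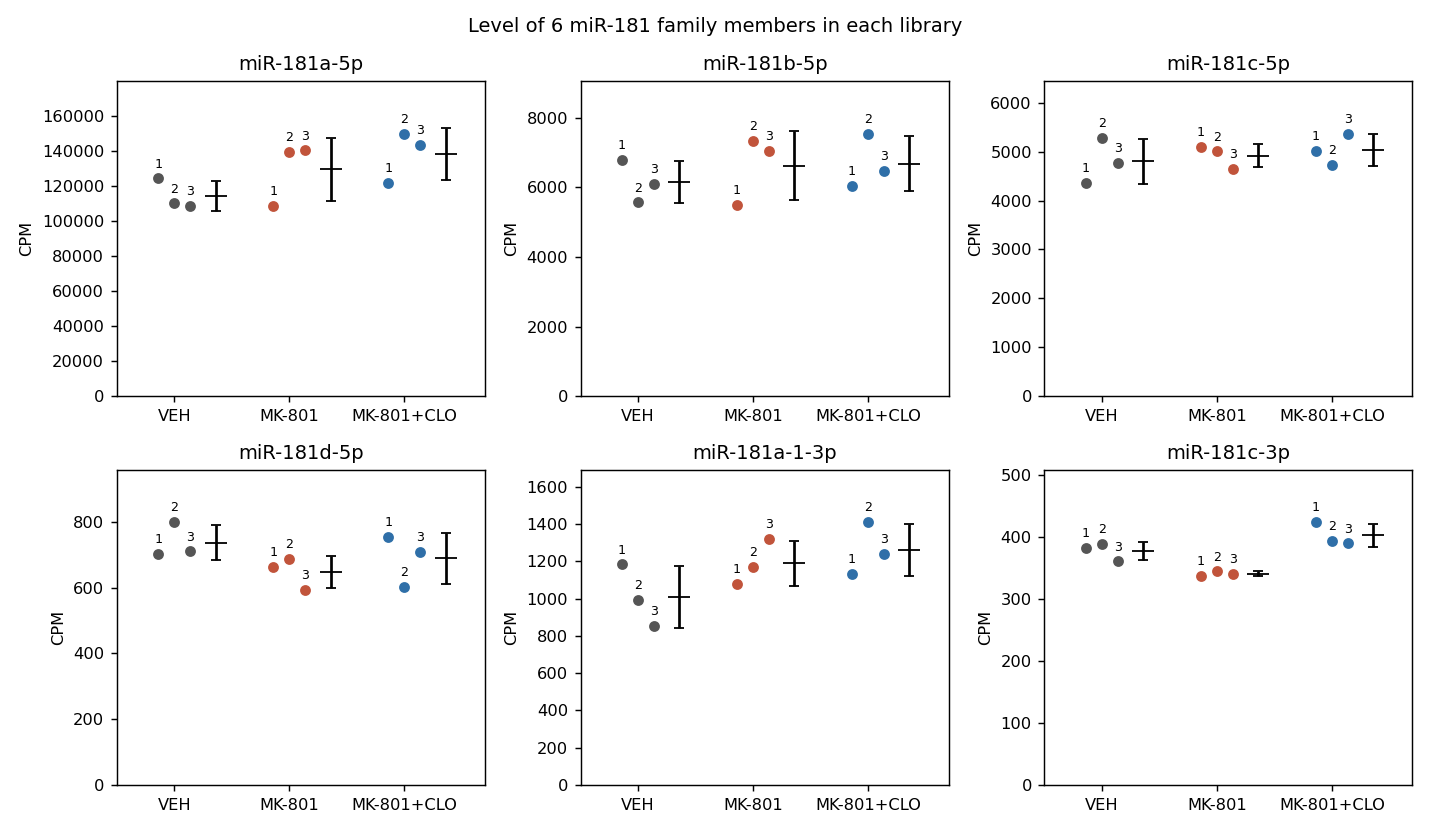
Level of 6 miR-181 members in CPM (vertical axis of each panel) in the VEH, MK-801 and MK-801+CLO groups; each point is a library, numbered by its replicate, and black marks give the mean ± SD of 3 libraries. The groups overlap for miR-181a-5p, miR-181a-1-3p, miR-181b-5p and miR-181c-5p, while all 3 MK-801 libraries of miR-181c-3p (337 to 344 CPM) lie below the VEH libraries (360 to 388 CPM) and these below the MK-801+CLO libraries (389 to 423 CPM).

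Differences between groups were tested by edgeR's quasi-likelihood test over the 469 miRNAs with enough counts, with Benjamini-Hochberg adjustment. Of the 8 tested members, 0 passed an adjusted p of 0.05 in any of the 3 comparisons, and neither did any of the 469 miRNAs (0% called in each). By DESeq2 the calls among all miRNAs numbered 1 between MK-801 and VEH (miR-6324, named after its value was seen), 2 between the drug groups and 11 between MK-801+CLO and VEH. With limma voom there were 0 calls in each. The values below therefore describe these libraries, and unadjusted p-values are read against how often all miRNAs reached them.

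After the MK-801 course, 6 of the 8 tested members stood above VEH and 2 below, with a median log2 difference of 0.12, against −0.02 over all 469 miRNAs, of which 46.5% were higher. None of the 8 had an unadjusted p under 0.05, which 24 of all 469 (5.12%) had, and 2 of the 8 had groups that did not overlap, against 13.9% of all. In MK-801+CLO against MK-801, 6 members stood higher and 2 lower, with a median of 0.10 against −0.0044 for all, of which 48.8% were higher. There 1 member had an unadjusted p under 0.05, against 39 (8.32%) of all, and the same member had separate groups, against 11.5% of all. In MK-801+CLO against VEH, 7 stood higher and 1 lower, with a median of 0.15 against 0.0034 for all, of which 50.1% were higher. In that comparison 2 members had an unadjusted p under 0.05, against 70 (14.9%) of all, and 1 member had separate groups, against 17.5% of all. Nothing particular to the family is read from these counts. The comparisons share libraries: MK-801 enters the first and second, VEH the first and last, and MK-801+CLO the second and last.

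**Figure D2:**
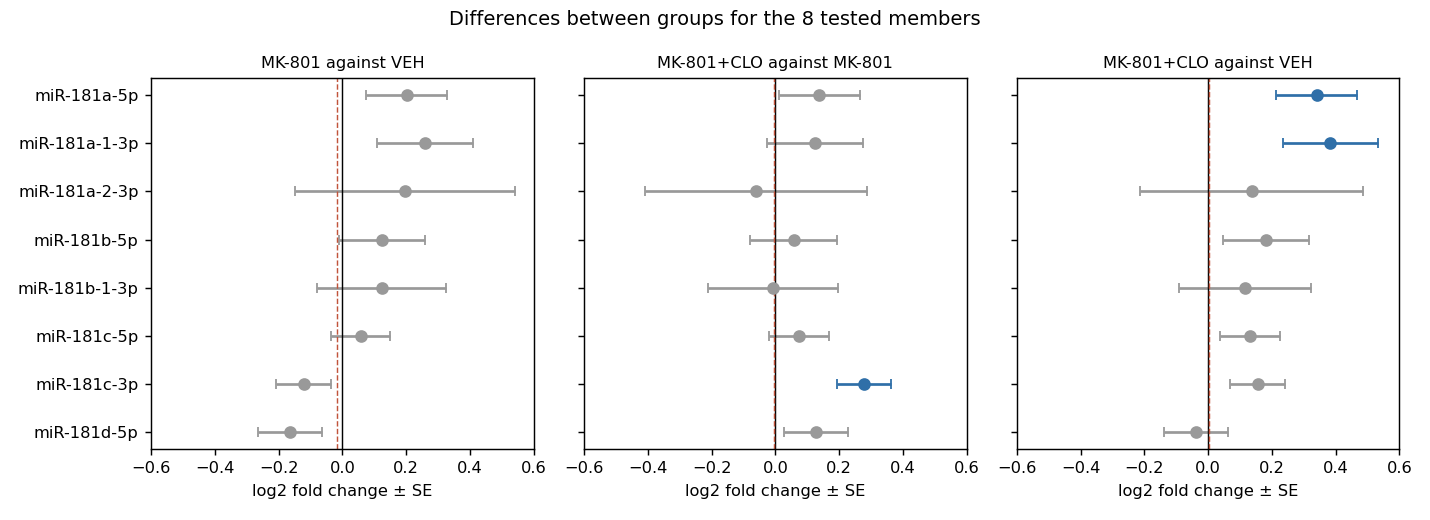
Log2 difference ± SE of the 8 tested miR-181 members (horizontal axis) in each of the 3 comparisons, from the edgeR fit to all 9 libraries; blue points have an unadjusted p under 0.05, grey points do not, and the dashed red line is the median over all 469 tested miRNAs. The blue points are miR-181c-3p in MK-801+CLO against MK-801 (0.28 ± 0.09) and miR-181a-5p (0.34 ± 0.13) and miR-181a-1-3p (0.38 ± 0.15) in MK-801+CLO against VEH.

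Both abundant miR-181a strands had their highest group mean after clozapine. In VEH, miR-181a-5p measured 124257, 110017 and 108361 CPM in replicates 1 to 3. In the MK-801 libraries it measured 108762, 139349 and 140255 CPM, and in MK-801+CLO 121767, 149836 and 143361 CPM. A low library sits in each drug group, MK-801 replicate 1 and MK-801+CLO replicate 1, and both fall within the VEH range, so the groups overlap. The log2 difference from VEH was 0.20 ± 0.13 (SE) for MK-801 and 0.34 ± 0.13 for MK-801+CLO, a 1.27-fold higher level, with an edgeR adjusted p of 0.814 and 0.254. MK-801+CLO against MK-801 gave 0.14 ± 0.13. Leaving out 1 library moved the difference between MK-801 and VEH to between 0.11, with MK-801 replicate 3 left out, and 0.30, with MK-801 replicate 1 left out. The difference between MK-801+CLO and MK-801 then lay between 0.042, again with MK-801 replicate 1 left out, and 0.24, with replicate 1 of MK-801+CLO left out. The unadjusted p of 0.0234 in MK-801+CLO against VEH, from edgeR's fit across all miRNAs, became 0.0707 with upper-quartile scaling, 0.0629 without VEH replicate 2, 0.0735 without VEH replicate 3, 0.124 without MK-801+CLO replicate 2 and 0.105 without MK-801+CLO replicate 3.

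The opposite strand of the Mir181a-1 precursor, miR-181a-1-3p, took much the same course. It measured 1184, 993 and 854 CPM in the VEH libraries, 1078, 1171 and 1319 CPM in those of MK-801 and 1133, 1410 and 1241 CPM in those of MK-801+CLO. Its group means were 1010 ± 166, 1189 ± 122 and 1262 ± 140 CPM (SD, n = 3), and VEH replicate 1 kept the groups from separating. The log2 difference between MK-801+CLO and VEH was 0.38 ± 0.15, 1.30-fold, with an edgeR adjusted p of 0.256. Between MK-801 and VEH it was 0.26 ± 0.15, and between MK-801+CLO and MK-801 0.12 ± 0.15. The unadjusted edgeR p in MK-801+CLO against VEH exceeded 0.05 with upper-quartile scaling, with the replicate number as a block (0.056, against 0.0394 for miR-181a-5p) and without VEH replicate 2, VEH replicate 3, MK-801+CLO replicate 2 or MK-801+CLO replicate 3. From the Mir181a2 precursor, the rare miR-181a-2-3p differed by 0.20 ± 0.34 (MK-801 against VEH), −0.06 ± 0.35 (between the drug groups) and 0.14 ± 0.35 (MK-801+CLO against VEH). Its coefficient of variation over the 9 libraries was 31.0%, and its standard errors were about as large as the difference seen for miR-181a-1-3p.

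For miR-181b-5p, whose genes lie next to those of miR-181a, values were 6792, 5566 and 6099 CPM in the VEH libraries, 5483, 7331 and 7034 CPM in those of MK-801 and 6031, 7543 and 6475 CPM in those of MK-801+CLO. The lowest MK-801 library lay below every VEH library and the highest lay above them all. The differences from VEH were 0.12 ± 0.14 on the log2 scale for MK-801 and 0.18 ± 0.14 for MK-801+CLO, and MK-801+CLO differed from MK-801 by 0.06 ± 0.14, which became −0.04 with upper-quartile scaling. The 3p strand of Mir181b1, miR-181b-1-3p, differed by 0.12 ± 0.20 (MK-801 against VEH), −0.01 ± 0.20 (between the drug groups) and 0.12 ± 0.21 (MK-801+CLO against VEH).

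Library by library, miR-181a-5p, miR-181a-1-3p and miR-181b-5p varied together. Over the 9 libraries the Pearson correlation of TMM-scaled log2 CPM with miR-181a-5p was 0.910 for miR-181a-1-3p and 0.904 for miR-181b-5p, ranks 2 and 4 among the 468 other tested miRNAs. For the rare miR-181b-1-3p and miR-181a-2-3p it was only 0.438 and 0.309, so not all miR-181a and miR-181b members varied together. The correlation was 0.166 for miR-181c-5p, 0.320 for miR-181c-3p and −0.506 for miR-181d-5p. The 9 points of each correlation share their library, its depth and its scaling, and group differences are included, so these values describe likeness only.

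**Figure D3:**
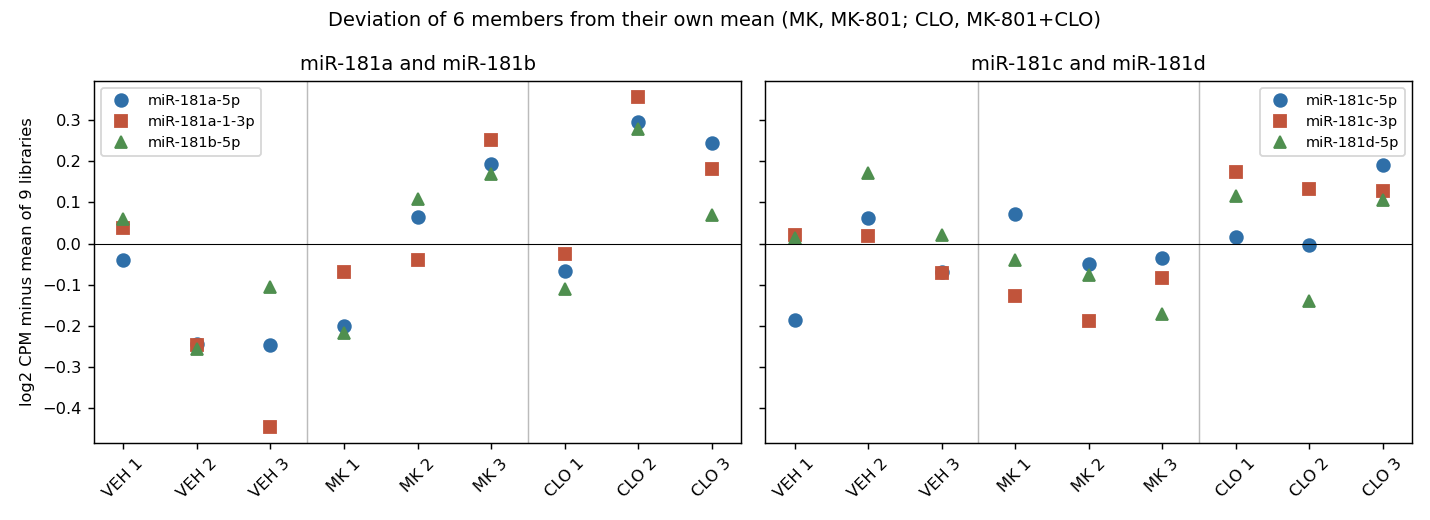
TMM-scaled log2 CPM minus the member's mean over the 9 libraries (vertical axis) for each library in order of group and replicate (horizontal axis); the left panel holds miR-181a-5p, miR-181a-1-3p and miR-181b-5p, the right panel miR-181c-5p, miR-181c-3p and miR-181d-5p. The points of the 3 members on the left lie close together (r with miR-181a-5p of 0.910 and 0.904), and those on the right do not follow each other.

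Among miRNAs outside the family with at least 10 CPM, those most like miR-181a-5p were miR-26b-3p (r = 0.909), miR-3586-3p (0.894), miR-872-5p (0.887), miR-195-3p (0.887) and miR-219a-2-3p (0.884), taken as the highest of 327 candidates. The nearest to miR-181a-1-3p were miR-3586-3p (0.892), miR-21-5p (0.879), miR-340-3p (0.863), miR-151-5p (0.850) and miR-100-5p (0.836). Of the first list, miR-219a-2-3p is a marker of oligodendrocytes, the myelinating cells of the brain. The 4 oligodendrocyte markers, all present, summed to 6458, 4371 and 4802 CPM in the VEH libraries, 4342, 7342 and 6681 CPM in those of MK-801 and 4314, 6506 and 4965 CPM in those of MK-801+CLO. Within VEH, replicate 1 was highest for both this sum and miR-181a-5p, and within MK-801 replicate 1 was lowest for both. Replicates 2 and 3 stood in opposite order in VEH and in MK-801. Within MK-801+CLO the libraries had the same order for both. The markers did not differ in one direction: miR-338-5p averaged 1067, 787 and 504 CPM in VEH, MK-801 and MK-801+CLO (log2 difference −1.03 ± 0.38 in MK-801+CLO against VEH, edgeR adjusted p = 0.254), whereas miR-219a-2-3p averaged 1187, 1403 and 1417 CPM. The part of oligodendrocyte content in the miR-181a values was not tested.

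The pair of Mir181c and Mir181d is described next. The 5p strand miR-181c-5p measured 4364, 5284 and 4765 CPM in the VEH libraries, 5102, 5004 and 4649 CPM in those of MK-801 and 5011, 4729 and 5370 CPM in those of MK-801+CLO. It had the lowest coefficient of variation of the members, 6.53% over all 9 libraries against 12.8% for miR-181a-5p. Its log2 differences were 0.06 ± 0.09 (MK-801 against VEH), 0.07 ± 0.09 (between the drug groups) and 0.13 ± 0.09 (MK-801+CLO against VEH), and the second became −0.04 with upper-quartile scaling. Its group means, 4804, 4918 and 5036 CPM, stood in the same order as those of miR-181a-5p. The log2 ratio of miR-181c-5p to miR-181a-5p gave differences of −0.14 (MK-801 against VEH, exact permutation p = 0.6), −0.07 (between the drug groups, exact permutation p = 0.7) and −0.20 (MK-801+CLO against VEH, exact permutation p = 0.3).

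In contrast to the 5p strand from the same hairpin, miR-181c-3p had no overlap between any of the 3 groups. It measured 381, 388 and 360 CPM in the VEH libraries, 337, 344 and 340 CPM in those of MK-801 and 423, 394 and 389 CPM in those of MK-801+CLO. Every MK-801 library was below every VEH library, and every VEH library below every MK-801+CLO library, with group means of 376.6 ± 14.7, 340.5 ± 3.62 and 402.0 ± 18.6 CPM (SD, n = 3). The gaps were narrow. The highest VEH library, at 388 CPM (95% Wilson interval 377 to 400 CPM), and the lowest MK-801+CLO library, at 389 CPM (379 to 400 CPM), agree within counting error. Between MK-801 and VEH the nearest intervals touched, with the upper end for MK-801 replicate 2 at 353 CPM and the lower end for VEH replicate 3 at 351 CPM. MK-801 and MK-801+CLO were apart also by these intervals. Of all 469 miRNAs, 3 (0.64%) had 3 separate groups, and miR-181c-3p was the only one of them with MK-801 lowest and MK-801+CLO highest. The others were miR-125a-5p and miR-667-3p, named after their values were seen.

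The largest step of miR-181c-3p was between MK-801 and MK-801+CLO, at 0.28 ± 0.09 on the log2 scale or 1.21-fold. Its unadjusted edgeR p of 0.00866 ranked 6 among 469, and its edgeR adjusted p was 0.519. By DESeq2 the difference was 0.29 with an adjusted p of 0.0366, and miR-181c-3p was 1 of 2 miRNAs (0.426%) that DESeq2 called in this comparison, beside miR-211-5p. Of 21 alternative settings, 20 left it past the unadjusted threshold. The exception was edgeR with upper-quartile scaling, with a difference of 0.16 and an unadjusted p of 0.133. That scaling moved the median of all miRNAs from −0.0044 to −0.12. MK-801 against VEH gave −0.12 ± 0.09 (edgeR adjusted p = 0.824), and MK-801+CLO against VEH gave 0.15 ± 0.09 (edgeR adjusted p = 0.426).

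Beside miR-181c-3p, the summed vascular and leukocyte markers stood high in the same group. The 5 vascular markers summed to 25140, 21841 and 24027 CPM in the VEH libraries, 24167, 23726 and 22715 CPM in those of MK-801 and 30249, 25684 and 28443 CPM in those of MK-801+CLO. The 6 leukocyte markers summed to 957, 801 and 821 CPM in the VEH libraries, 830, 804 and 837 CPM in those of MK-801 and 1131, 912 and 950 CPM in those of MK-801+CLO. For both lists every MK-801+CLO library was above every MK-801 library, while VEH and MK-801 overlapped, and no listed marker was at 0. Every vascular sum in MK-801+CLO was also above every VEH sum, whereas the leukocyte sums of these 2 groups overlapped. The median log2 difference between MK-801+CLO and VEH was 0.28 for the vascular and 0.10 for the leukocyte list. Most of the vascular sum was miR-143-3p, at 17344 CPM on average in MK-801 and 21311 CPM in MK-801+CLO. Of the 5 vascular markers 4 were higher and 1 lower in MK-801+CLO than in MK-801. The lower one was miR-145-3p, at 3.80 CPM in MK-801 and 3.33 CPM in MK-801+CLO. Most of the leukocyte sum was miR-150-5p, at 720 CPM on average in MK-801 and 894 CPM in MK-801+CLO. Of the 6 leukocyte markers 4 were higher and 2 lower in MK-801+CLO than in MK-801, the lower ones being miR-142-5p (45.8 and 41.1 CPM in MK-801 and MK-801+CLO) and miR-142-3p (8.93 and 7.26 CPM). The 4 red blood cell markers summed to 2710 to 3091 CPM in MK-801 and 2973 to 3268 CPM in MK-801+CLO, overlapping each other, and to 3071 to 3563 CPM in VEH. Singly, all 4 were lower in MK-801 than in VEH, with a median log2 difference of −0.16. All 4 were higher in MK-801+CLO than in MK-801, with a median of 0.23, against 0.16 for the vascular and 0.16 for the leukocyte list. In both comparisons 0 of these 4 passed an edgeR adjusted p of 0.05. The part of these cells in the level of miR-181c-3p was not tested.

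Between MK-801+CLO and MK-801, 2 of the 5 vascular and 1 of the 6 leukocyte markers had an unadjusted edgeR p under 0.05. Of all 469 miRNAs, 8.32% had such a p. These markers were picked by p, so the size of their differences is not set against that of miR-181c-3p. The endothelial miR-126a-3p differed by 0.30 ± 0.09, the smooth muscle miR-143-3p by 0.33 ± 0.09 and the lymphocyte miR-150-5p by 0.35 ± 0.11 on the log2 scale, each with an edgeR adjusted p of 0.519 to 0.526. The miRNAs most like miR-181c-3p over the 9 libraries were miR-150-5p (r = 0.848), miR-126a-3p (0.845), miR-211-5p (0.843), miR-212-3p (0.820) and miR-128-3p (0.773). The first of these is the leukocyte marker just described and the next a vascular marker. Both miR-212-3p and miR-128-3p are on the list of neuronal and synaptic miRNAs given below, and miR-128-3p is also a neuronal marker. These miRNAs were taken as the highest of 327 candidates, and r includes group differences. From the choroid plexus list, miR-211-5p was the 1 of 7 markers that was higher in MK-801+CLO than in MK-801, and the other 6 were lower (median of the list −0.48).

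The neighbour miR-181d-5p measured 702, 799 and 710 CPM in the VEH libraries, 662, 688 and 594 CPM in those of MK-801 and 753, 603 and 710 CPM in those of MK-801+CLO. All 3 MK-801 libraries lay below all VEH libraries, while MK-801+CLO spanned both. The nearest pair, MK-801 replicate 2 and VEH replicate 1, had overlapping 95% Wilson intervals of 676 to 701 and 689 to 715 CPM. The log2 difference of MK-801 from VEH was −0.16 ± 0.10, with an edgeR adjusted p of 0.814. MK-801+CLO differed by 0.13 ± 0.10 from MK-801 and by −0.04 ± 0.10 from VEH.

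Ratios of members within a library do not depend on how libraries were scaled. From 6 ratios, 18 exact two-sided permutation tests were made, of which none can go below p = 0.1 with 3 libraries against 3. For 3 of the 18 that limit was reached, and after Benjamini-Hochberg adjustment the smallest p was 0.4. Without any group difference a test reaches the limit with a probability of 0.1, and the 18 tests share libraries and members. Nothing is therefore read from the number that reached it.

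The arm ratio of Mir181c, miR-181c-3p per 100 counts of miR-181c-5p, was 8.74, 7.35 and 7.56 in VEH, 6.60, 6.88 and 7.32 in MK-801 and 8.45, 8.32 and 7.25 in MK-801+CLO. MK-801 lay below VEH without overlap, but by little, 7.32 against 7.35 at the nearest pair. The mean log2 difference was −0.18 for MK-801 against VEH (exact permutation p = 0.1), 0.21 for MK-801+CLO against MK-801 (exact permutation p = 0.2) and 0.02 for MK-801+CLO against VEH (exact permutation p = 1).

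The neighbour ratio, miR-181d-5p per 100 counts of miR-181c-5p, was 16.1, 15.1 and 14.9 in VEH, 13.0, 13.8 and 12.8 in MK-801 and 15.0, 12.8 and 13.2 in MK-801+CLO. Relative to miR-181a-5p, the log2 difference of miR-181d-5p was −0.36 in MK-801 against VEH (exact permutation p = 0.2), with overlapping groups. Relative to miR-181c-5p, from the adjacent gene, MK-801 lay below VEH in every library, with a mean log2 difference of −0.22 (exact permutation p = 0.1). In MK-801+CLO, replicate 1 was back in the VEH range and the others were not.

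The ratio of miR-181b-5p to miR-181a-5p was 5.38% ± 0.293 in VEH, 5.11% ± 0.135 in MK-801 and 4.83% ± 0.278 in MK-801+CLO (SD, n = 3). Here MK-801+CLO lay below VEH in every library, narrowly at 5.03% against 5.06% in the nearest pair, with a mean log2 difference of −0.16 (exact permutation p = 0.1). The arm ratio of Mir181a-1, miR-181a-1-3p per 100 counts of miR-181a-5p, averaged 0.881, 0.924 and 0.913 in VEH, MK-801 and MK-801+CLO. The groups overlap, with an SD of 0.0408 to 0.0846 within groups.

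**Figure D4:**
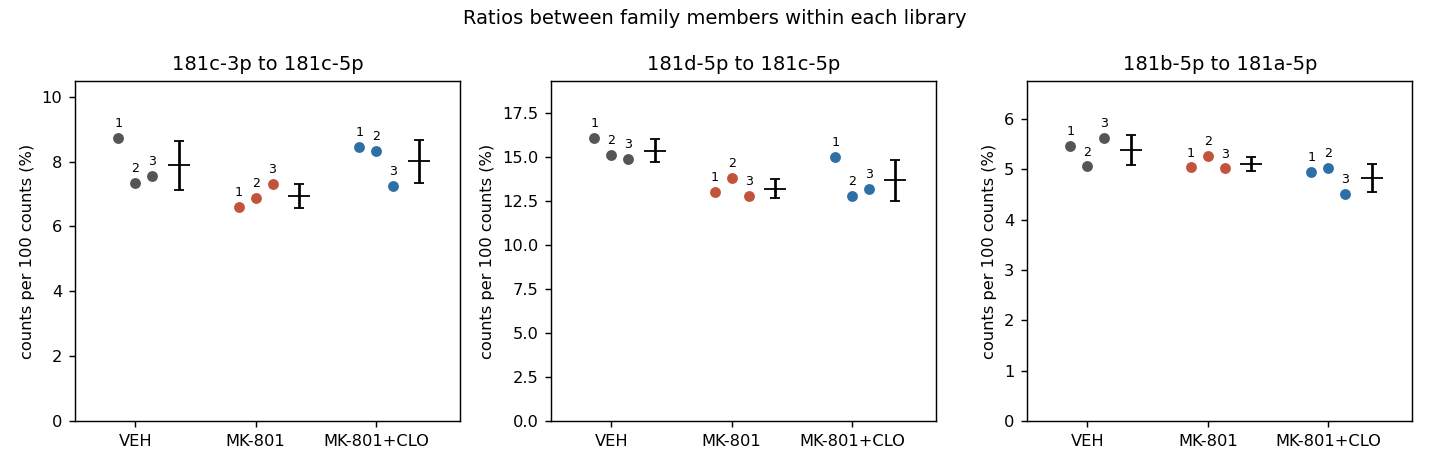
Ratios within a library, in percent (vertical axes), of miR-181c-3p to miR-181c-5p, miR-181d-5p to miR-181c-5p and miR-181b-5p to miR-181a-5p, by group; each point is a library, numbered by its replicate, and black marks give the mean ± SD of 3 libraries. In the first and second panels all MK-801 points lie below all VEH points, and in the last all MK-801+CLO points lie below all VEH points. Of the 6 ratios tested, only those that reached the smallest possible permutation p in a comparison are shown.

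For comparison, 16 miRNAs known from neurons and synapses, all of them tested, gave 7 higher and 9 lower in MK-801 against VEH, 10 and 6 when clozapine was compared with MK-801 alone, then 11 and 5 in MK-801+CLO against VEH. Their median log2 differences were −0.01, 0.10 and 0.17, against 0.12, 0.10 and 0.15 for the miR-181 members, and 0 of 16 passed an edgeR adjusted p of 0.05. Values past an unadjusted p of 0.05 included miR-138-5p, a regulator of dendritic spine size, at 0.58 ± 0.18 in MK-801 against VEH and −0.47 ± 0.18 in MK-801+CLO against MK-801. They also included miR-128-3p, a neuronal miRNA that restrains excitability, at 0.44 ± 0.14, and the activity-induced miR-212-3p, at 0.32 ± 0.12, in MK-801+CLO against MK-801. In that comparison miR-7a-5p, abundant in neurons and neuroendocrine cells, stood lower, at −0.64 ± 0.24. Of all 469 miRNAs, 5.12% had such a p in MK-801 against VEH, 8.32% between the drug groups and 14.9% in MK-801+CLO against VEH. Among the 16, 4 stood higher and 1 lower at such a p in MK-801+CLO against VEH. The higher ones were miR-132-3p, encoded beside miR-212, at 0.42 ± 0.16, miR-212-3p at 0.30 ± 0.12, miR-128-3p at 0.33 ± 0.14 and miR-34a-5p, a target of p53, at 0.67 ± 0.29. The lower one, with the smallest p of the 5, was miR-7a-5p at −0.74 ± 0.24.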

How the data were processed

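Small RNA libraries of hippocampus were analysed from 1 table of raw counts per mature miRNA, as the authors deposited it. Per the submitters' processing notes the tools were cutadapt 1.14, Bowtie and DESeq, with the rat build Rnor_6.0; their settings were not stated. The deposited columns headed TPM equal CPM computed from the counts to within 0.000473%. The table's 21 blank lines were skipped and 1 name split over lines was rejoined. Groups came from the sample titles. The table holds 633 miRNAs, 3 of them at 0 in all libraries.

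Counts were fitted in R 4.3.3 with edgeR 4.0.16 (TMM factors, filterByExpr by group, glmQLFit and glmQLFTest, no covariate), with all 9 libraries in 1 fit and Benjamini-Hochberg adjustment over the 469 miRNAs tested. The common biological coefficient of variation was 17.2%. The analysis was tested on simulated counts. Alternatives used DESeq2 1.42.0, limma 3.58.1, other scalings and filters, the replicate number as a block, and each library left out. Ratios had 0.5 added to each count and were tested by exact permutation with SciPy 1.17.1. Wilson intervals and zero limits cover counting error only. Any 2 libraries differed by far more than sampling noise.

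The members and marker lists were chosen with earlier results of these data known. Other miRNAs are named by 3 rules: the 5 with the highest correlation with miR-181a-5p or with a member at an unadjusted p under 0.05, listed miRNAs with such a p or needed as marker levels, and miRNAs sharing a member's seed. Outside these rules, miR-6324, miR-125a-5p and miR-667-3p were named after their values were seen.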

Additional observations from a re-analysis of the deposited data

How the results depend on the processing

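The count of members past an adjusted p of 0.05 was 0 in each comparison under all alternatives but one: DESeq2 gave 1 in MK-801+CLO against MK-801, miR-181c-3p, against 0 by edgeR. In that comparison miR-181b-1-3p turned from −0.01 to 0.014 with RLE factors and 0.013 with DESeq2. It became 0.0052 with only the 6 libraries compared and 0.0095 without VEH replicate 1. Upper-quartile scaling there turned miR-181b-5p to −0.043 and miR-181c-5p to −0.038. The other log2 differences kept their direction in all alternatives that kept every library of the groups compared. The filter on a mean of at least 10 CPM gave no value for miR-181a-2-3p and miR-181b-1-3p.

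Leaving out 1 library at a time, MK-801 against VEH ran from −0.027 to 0.55 for miR-181a-2-3p and from −0.024 to 0.13 for miR-181c-5p. MK-801+CLO against MK-801 ran from −0.50 to 0.16 for miR-181a-2-3p, −0.16 to 0.14 for miR-181b-1-3p and −0.047 to 0.15 for miR-181b-5p. MK-801+CLO against VEH ran from −0.33 to 0.49 for miR-181a-2-3p, −0.055 to 0.27 for miR-181b-1-3p and −0.10 to 0.022 for miR-181d-5p. The log2 ratio of miR-181a-1-3p to miR-181a-5p ran from −0.0091 to 0.14 in MK-801 against VEH, −0.082 to 0.037 in MK-801+CLO against MK-801 and −0.024 to 0.11 in MK-801+CLO against VEH. In MK-801+CLO against MK-801, the ratio of miR-181c-5p to miR-181a-5p ran from −0.17 to 0.081, that of miR-181d-5p to miR-181a-5p from −0.17 to 0.14 and that of miR-181d-5p to miR-181c-5p from −0.020 to 0.099. The ratio of miR-181c-3p to miR-181c-5p in MK-801+CLO against VEH ran from −0.025 to 0.10. The cause was not tested.

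Libraries with the same replicate number did not deviate together, with correlations of −0.311 to 0.155. With the replicate block 0 members passed an adjusted p of 0.05, and 25, 35 and 64 miRNAs had an unadjusted p under 0.05, against 24, 39 and 70 without it. With 3 libraries per group no ratio could pass the threshold.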

Other observations

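Of the members too rare to test, miR-181b-2-3p has the same seed as a miRNA outside the family, miR-653-3p, which had 46 counts in all and 0 to 1.29 CPM per library. The untested members are shown as deposited, with the seed in capitals, to show where they depart from the tested 3p members.
miR-181b-2-3p: cTCACTGGtcaatgaatgcaaa
miR-181d-3p: cCACCGGGggatgaatgtca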
